A study of Mus musculus with 3 samples.

Results

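T cells and natural killer (NK) cells are lymphocytes that recognise altered or infected cells, and in the epididymis, the duct in which sperm mature and are stored, they belong to the resident immune cells beside macrophages. The T and NK lymphocytes described here are 122 of the 3525 barcodes kept in a single-cell RNA library of cells aspirated from the tail of this duct (cauda epididymis) of the Tsc22d3 knockout, out of 17371 barcodes kept in the whole series. They were chosen by their own counts of unique molecular identifiers (UMIs, each standing for 1 captured RNA molecule). A kept barcode had at least 500 UMIs, at least 200 genes and at most 20% of UMIs from mitochondrially encoded genes. A member held at least 3 UMIs in sum over Cd3d, Cd3e, Cd3g, Trac, Trbc1, Trbc2, Nkg7 and Klrd1 with at least 2 of these 8 genes detected, had less than 0.05% of its UMIs in Cd79a, Cd79b and Ms4a1, and had at most 1 UMI in Adgre1, Csf1r, Timd4 and Vsig4.

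The series holds 3 mouse libraries made with 10x Chromium 3′ v3.1 chemistry, which counts the 3′ ends of transcripts, with 1 library per group. The KO cauda comes from the goGermline line, made to lack Tsc22d3, sampled by aspiration through the skin, and its labelled cell type is epididymal cells. The chimera cauda was sampled the same way from the Tsc22d3-knockout host background complemented with mouse induced pluripotent stem cells (line Pax7-nGFP iPS x goGermline), so it mixes host and donor cells, and its labelled cell type is spermatids and spermatozoa. The KO testis is the dissociated testis of adult goGermline knockout origin. All hosts thus carried the knockout and none is wild type. The labels do not give the number of animals behind a library, nor the animals' age for the cauda libraries. No group has a replicate, so no test was made between conditions and every interval below covers counting error only.

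A T cell reads antigen through a receptor made of an alpha and a beta chain or of a gamma and a delta chain, held at the surface by the CD3 proteins, and passes the signal inward through kinases such as Lck and Zap70. CD4 T cells help or restrain other immune cells, CD8 T cells kill, gamma delta T cells of barrier and reproductive tissues are often fast cytokine producers, and NK cells kill without a rearranged receptor. NK cells carry activating and inhibitory receptors and store granzymes and perforin. Naive T cells recirculate through lymph nodes by way of homing receptors such as Ccr7, whereas tissue-dwelling cells carry receptors such as Cxcr6.

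Many barcodes occurred in both cauda libraries, which touches the members before any result. Of the 3937 barcodes of the KO cauda table, 3936 also had UMIs in the chimera cauda table, and 119 of the 184 kept chimera barcodes were kept in the KO cauda too. A total of 116 kept KO cauda barcodes held more UMIs in the chimera table, where their KO cauda UMIs came to 8.27% to 20.99% of the chimera UMIs (median 18.1%). Only 1 of the 122 members was among them, an NK-type barcode with 1738 UMIs in the KO cauda and 8918 in the chimera cauda. The other 121 members had between 0.555% and 1.39% of their UMIs in the chimera table (median 0.914%). Without the 116 barcodes, 121 of 3409 kept barcodes (3.55%) were members. Between the KO cauda and the KO testis, 8 kept barcodes were shared, and none of the testis T and NK barcodes was kept in the cauda.

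The members made up 3.46% of the kept KO cauda barcodes (95% interval 2.88% to 4.12%, exact binomial). Among the 2999 barcodes that met the T and NK rule or the matching rules for B lymphocytes (1862) and macrophages (1015), they made up 4.07% (3.39% to 4.84%). The same rule found 2 of 184 kept barcodes in the chimera cauda (1.09%, 0.132% to 3.87%) and 33 of 13662 in the KO testis (0.242%, 0.166% to 0.339%). Out of lymphocyte and macrophage barcodes alone, the shares were 1.67% (0.202% to 5.89%) in the chimera cauda and 1.61% (1.11% to 2.25%) in the KO testis. The KO testis differed from both cauda libraries in tissue, handling and depth. The chimera cauda differed from the KO cauda in donor cells, software version and depth, and shared barcodes with it. Of its 2 T and NK barcodes, 1 is also counted among the KO cauda members. These differences cannot be told apart.

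Members held 1061 to 16784 UMIs (median 6748) over 479 to 3662 genes (median 2223.5), and 2.07% to 17.9% of their UMIs were mitochondrial (median 5.33%). B barcodes were deeper, with a median of 8758.5 UMIs, and macrophage barcodes held a median of 17260. Summed over barcodes, the members gave 890889 UMIs, the B barcodes 17425846 and the macrophage barcodes 18171455. Levels are given as CPM, which is the number of UMIs of a gene per 1000000 UMIs of its class, and a gene with 0 UMIs stands at a floor of 3 UMIs, which is 3.37 CPM in the members, 0.172 CPM in the B and 0.165 CPM in the macrophage barcodes.

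Of the kept barcodes, 168 held at least 3 UMIs of the 8 genes, 141 of these had at least 2 of the genes detected, 125 of these passed the B limit and 122 the macrophage limit as well. Members carried 5 to 80 UMIs of the 8 genes (median 30), 1 member carried at most 5, and 2 barcodes with exactly 2 UMIs lay within the other limits but outside the rule. Both limits together removed 2 barcodes, and the B limit alone 14, whose B gene share began at 0.0758% (median 0.671%), while the highest share in a member was 0.0411%. A further 3 barcodes fell to the macrophage limit alone, with 21, 39 and 111 UMIs of the macrophage genes and 17 to 44 of the T and NK genes. Those 3 held 21706 to 32400 UMIs, more than any member. Of the members, 11 held 1 macrophage gene UMI and 33 held a B gene UMI.

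The label was checked on the genes that set it, which describes the choice and is no finding. Any of Cd3d, Cd3e and Cd3g, the invariant chains of the receptor complex, was detected in 106 members (86.9%), and all 3 in 94. Every member had a UMI of Trbc1 or Trbc2, the alternative constant regions of the beta chain, and 72 had both. Trac, the alpha constant region, was found in 72 members, and Trdc, the delta constant region, which the rule did not use, in 31. Both Trac and Trdc were found in 11. Nkg7 or Klrd1, which cytotoxic T cells and NK cells share, was found in 54. For scale, Cd3e was seen in 58.3% of members, 0.164% of B and 0% of macrophage barcodes after every barcode had been thinned to 2000 UMIs, which left out 2 members, 38 B and 4 macrophage barcodes.

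**Figure D1:**
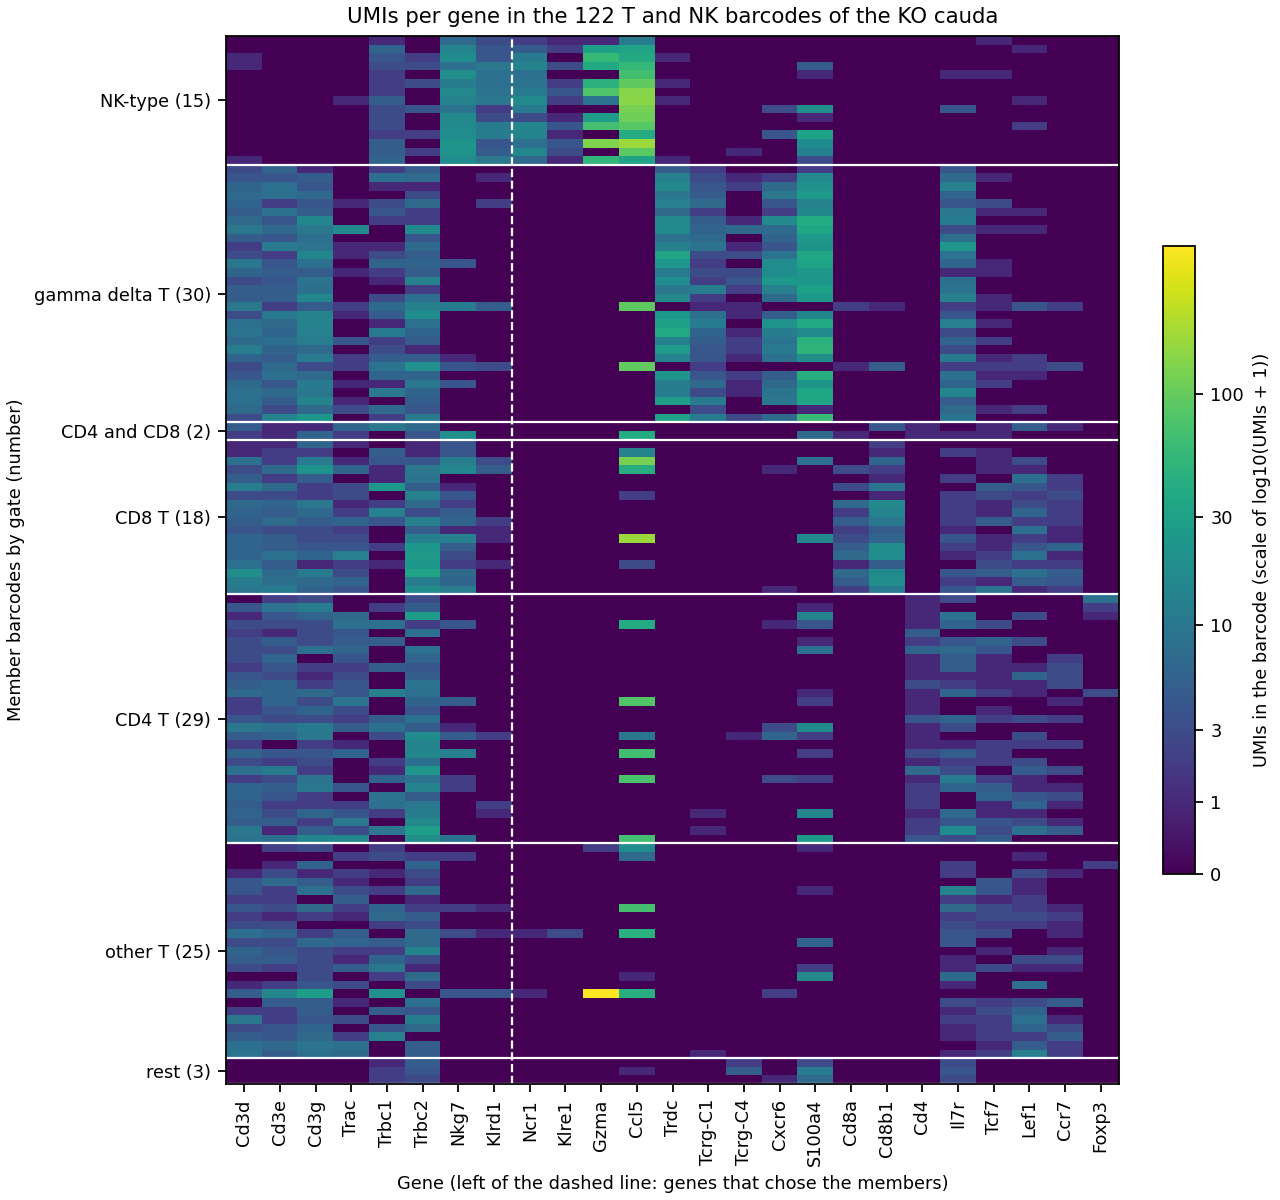
UMIs of 25 genes (columns) in each of the 122 member barcodes (rows, by gate), coloured on a scale of log10(UMIs + 1). The 8 genes left of the dashed line chose the members. Ccl5 is found in all 15 NK-type barcodes and Gzma in 11 of them, the highest Gzma count (419 UMIs) is in the other T gate, and Trdc is found in 27 of the 30 gamma delta T barcodes.

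Against the B and macrophage barcodes of the same library, the members were marked by the interleukin-7 receptor, by cytotoxic products and by genes of gamma delta T and NK cells. A gene was counted when its CPM in the higher class was 100 or more and at least 4-fold that in the lower. Of 1448 genes that reached this level in the members or the B barcodes, 111 (7.67%) were higher in the members and 122 (8.43%) lower. Of 1713 genes in the members or the macrophage barcodes, 144 (8.41%) were higher in the members and 306 (17.9%) lower. Without the 116 barcodes named above the counts were 112, 122, 145 and 305. The classes were chosen on expression, so these counts describe the classes and test nothing.

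Outside the rule genes, Il7r (chr15:9505788-9530176, GRCm38), the receptor chain for the survival cytokine interleukin-7, came first when genes were ordered by the smaller of their ratios over B and over macrophage barcodes. It was found in 90 of the 122 members with 451 UMIs, 506 CPM (461 to 555, exact Poisson). Detected members held 1 to 23 UMIs of it (median 4). B barcodes held 1 UMI in all and macrophage barcodes 2, so the ratios were 8822 (1575 to 349197) and 4600 (1266 to 38096). By single ratios Trdc stood higher over B barcodes, at 9487, and Bcl11b over macrophage barcodes, at 4834. Its distribution among members was uneven, since all 30 gamma delta T barcodes but 2 of the 15 NK-type barcodes carried it.

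Ccl5 (chr11:83525778-83530518), a chemokine that draws in T cells and monocytes, had the highest level of the 15 genes chosen by size, at 2618 CPM (2512 to 2726). It came from 37 members that held 1 to 169 UMIs (median 55), and 85 members held none. The level was 4561-fold (2476 to 9525) that of B barcodes and 3171-fold (1919 to 5675) that of macrophage barcodes. Gzma (chr13:113093825-113100981), which encodes a granule protease, was narrower still, with 959 UMIs in 13 members. A single member held 419 of these UMIs. The Gzma level was 1076 CPM (1009 to 1147) against 0.344 CPM in B and 0.275 CPM in macrophage barcodes.

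Trdc reached 544 CPM (497 to 595) from 31 members, with 1 UMI in all B and 5 in all macrophage barcodes. Tcrg-C1, a constant region of the gamma chain, had 176 CPM in 33 members and none in macrophage barcodes, where the ratio was at least 1067. Cd163l1, a scavenger receptor gene known from gamma delta T cells, had 223 CPM in 26 members and was 1946-fold above B and 1353-fold above macrophage barcodes. Trdv4, a variable segment of the delta chain, had 109 CPM in 20 members and no UMI in B or macrophage barcodes (at least 632-fold and at least 659.5-fold). Each of these 4 genes was thus carried by at most 33 of the members.

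Ncr1, the activating NK receptor NKp46, had 171 CPM (145 to 200) in 17 members and no UMI in 1862 B and 1015 macrophage barcodes, making it at least 991-fold and at least 1033-fold higher. Ctsw, a cathepsin of cytotoxic cells, had 128 CPM in 49 members and 1 UMI in each of the other classes. Il18r1, which lets cells respond to interleukin-18, was broader, with 283 CPM in 76 members. F2r, a thrombin receptor, had 111 CPM in 38 members and no UMI in B barcodes.

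The remaining genes of the 15 chosen by size were spread over most members. Bcl11b, the transcription factor that holds T cell identity, had 266 CPM in 88 members and 927-fold the B level. Thy1, a surface glycoprotein of T cells, had 376 CPM in 87 members, and Cd247, the zeta chain of the receptor complex, 147 CPM in 78. Lef1, a transcription factor of naive T cells, had 240.2 CPM (209 to 275) in 63 members, 698-fold the B and 1455-fold the macrophage level. Thinned to 2000 UMIs per barcode, Il7r was seen in 54.2% of members and in no B or macrophage barcode, and Bcl11b in 48 of 120 members against 0.0548% of B barcodes.

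The genes lowest against B barcodes included B-lineage genes. Ebf1, a transcription factor that sets B cell fate, had 5 UMIs in the members, 5.61 CPM against 1746 CPM, and was 311-fold (133 to 958) lower. The immunoglobulin light chain genes Igkc, Iglc1 and Iglc3 were 177-fold, 276-fold and 180-fold lower. Igkc still left 63 UMIs in the members, 70.7 CPM against 12528 CPM. Bcl11a was represented by 1 UMI, a ratio of 234.5 (42.1 to 9263). The other genes named in this direction were Siglecg (2 UMIs), Rassf4 (1 UMI) and Fcmr (2 UMIs), which were 196-fold, 177-fold and 155.5-fold lower. Rassf4 was not limited to B barcodes, since 910 of 1015 macrophage barcodes carried it, at 164 CPM. Against macrophage barcodes the genes named were F10, Fgfr1, Cd5l, Alox15, Tgfb2, Pf4, Msr1 and Spi1, from 538-fold (96.6 to 21264) for F10 to 287-fold (51.5 to 11336) for Spi1. In both directions the order set a gene with 0 UMIs in the members at the floor of 3 UMIs, so a gene with 1 UMI, as F10, Fgfr1, Cd5l, Msr1 and Spi1 had, could stand above a gene with none. Alox15, a lipoxygenase of resident macrophages, had 5.61 CPM in the members against 2410 CPM.

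**Figure D2:**
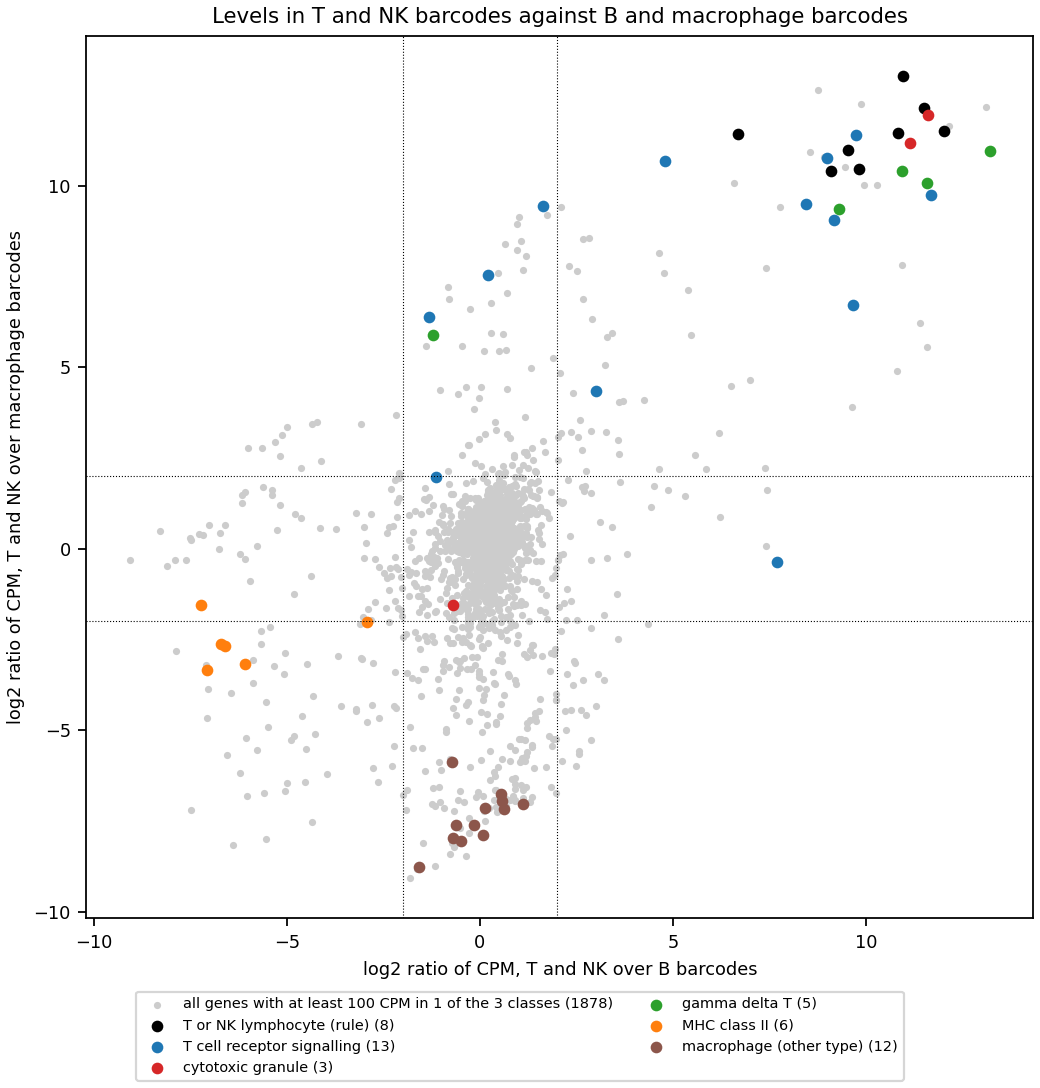
Log2 ratio of CPM in the 122 T and NK barcodes over B barcodes (x axis) and over macrophage barcodes (y axis), 1 point per gene with at least 100 CPM in 1 of the classes. Dotted lines mark 4-fold, and a gene with 0 UMIs in a class stands at the floor of 3 UMIs. Receptor signalling and gamma delta T genes lie mostly at the upper right, MHC class II genes at the lower left, and Lcp2 and Cd2 are receptor signalling genes that are high in one other class.

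Gene lists were used to describe the members by function. A list gene was measured when it had more than 3 UMIs in the members or when its level in the other class would have given more than 3 there, and 4-fold counts carry no minimum CPM. Over all genes measured this way, 893 of 10297 (8.67%) were at least 4-fold higher than in B barcodes and 469 (4.55%) lower, with a median log2 ratio of 0.28. Against macrophage barcodes 1054 of 10745 (9.81%) were higher and 1094 (10.2%) lower, with a median of 0.25. The members were chosen by genes of the same lineages, so the list counts describe them and test nothing.

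Of 22 genes that carry the signal of the T cell receptor, 18 were at least 4-fold higher in the members than in B barcodes (median log2 ratio 7.05) and 20 than in macrophage barcodes (8.52). Their summed level was 3003 CPM in the members, 920 in B and 167 in macrophage barcodes. Lck, the kinase that starts the signal, had 273 CPM in 81 members and 9.93 CPM in B barcodes. Lat, the scaffold on which the signal is built, had 288 CPM in 93 members. The genes below 4-fold were shared with B cells or macrophages. Cd2, an adhesion receptor, was 0.404 times the B level, Ptpn22, a phosphatase that limits receptor signals, 0.456 times, Rasgrp1 1.16 times and Grap2 3.104 times. Lcp2, an adaptor that myeloid cells also use, was 0.781 times the macrophage level.

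Of 18 T and NK transcription factors, 16 were at least 4-fold higher than in B and 14 than in macrophage barcodes (medians 6.54 and 6.33). Id2, which blocks B cell factors and is used by innate lymphocytes, was the most abundant with 622 CPM in 86 members. Ets1 was at 495 CPM but only 1.57 times the B level. Zbtb7b, the factor of CD4 commitment, was sparse at 23.6 CPM and 1.40 times the B level. Lineage factors were found in fewer members, Tbx21 in 15, Eomes in 17 and Foxp3 in 5.

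Of 10 measured cytotoxic granule genes, 8 were at least 4-fold higher than in each other class (medians 7.11 and 7.12). Prf1, which encodes the pore-forming perforin, had 83 UMIs in 27 members, and Gzmb 28 UMIs in 9. Srgn, the proteoglycan of granules in many blood cells, was 0.621 times the B and 0.340 times the macrophage level. NK receptors and markers were at least 4-fold higher for 16 of 18 genes against B (median 6.89) and 14 of 18 against macrophages (6.22). Tyrobp and Fcer1g, signalling adaptors that macrophages also use, were lower than in macrophages at 0.0874 and 0.177 times their level.

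Cytokine genes were carried by Ccl5 and Ltb. Of 13 measured, 11 were at least 4-fold higher than in B barcodes (median 5.87) and 10 than in macrophage barcodes (6.67). Ltb, which encodes lymphotoxin beta and shapes lymphoid tissue, was found in 116 members at 947 CPM, but at 1.17 times the B level. Tnfsf8, Tnf and Lta had 79, 50 and 42 UMIs. Interferon gamma (Ifng) had 10 UMIs in 7 members. Il17a, Il17f, Il22, Il21, Il10, Il13, Il5 and Areg had none in 122 barcodes, where the floor of 3 UMIs is 3.37 CPM.

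Chemokine and egress receptors did not separate the members from B cells as a list. Of 11 measured, 5 were at least 4-fold higher and 3 lower than in B barcodes (median 0.47), and 7 of 11 were higher than in macrophage barcodes (3.85). Ccr2, Cxcr6 and Cxcr3, receptors for inflamed tissue, had 406, 310 and 113 CPM and were 787-fold, 540-fold and 220-fold above B. Cxcr5, Ccr9 and Ccr6 were below B at 0.0539, 0.232 and 0.0394 times. Cytokine receptors were higher for 8 of 14 genes against B (2.79) and 10 of 14 against macrophages (3.32), and Ifngr1, a chain of the interferon gamma receptor, led with 639 CPM.

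Lists tied to differentiation were mixed. Naive and lymph node homing genes were higher for 8 of 11 against B (2.89) and 7 of 11 against macrophages (6.32), with Klf2 at 0.769 times the B level. Memory and tissue genes were higher for 9 of 17 against B (2.73) and 10 of 17 against macrophages (4.18). Regulatory T genes were higher for 6 of 7 against B (3.16) and 7 of 7 against macrophages (6.77). Of 5 measured inhibitory and costimulatory receptors, 3 were higher and 1 lower than in B (5.99), and 5 were higher than in macrophages. Pdcd1, an inhibitory receptor, had 13 UMIs in 11 members, 9 of them gamma delta T barcodes, and Tigit had none.

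Stress and hormone programmes differed less. Immediate early genes were higher for 1 of 12 against B (median -0.38) and for 1 of 12 against macrophages with 2 lower (-0.84). Glucocorticoid response genes were higher for 1 of 11 and lower for 1 against B (0.27), and higher for 2 and lower for 3 of 12 against macrophages (-0.35). Tsc22d3, the knocked-out gene, which glucocorticoids induce in lymphocytes, left 2 UMIs in 2 members, 2.24 CPM (0.272 to 8.11), beside 16.5 CPM in B and 6.66 CPM in macrophage barcodes. The library counts 3′ ends and the position of the deleted part was not analysed here, so these UMIs check nothing.

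Interferon response genes were higher for 1 of 8 against B (0.90), and none of 9 was higher and 3 were lower against macrophages (-1.28). Cell cycle genes were higher for 3 of 7 against B (1.91) and for none against macrophages (0.28). Mki67 or Top2a was found in 8 members, and 36 of the 42 Top2a UMIs came from 1 CD4 T barcode. Class I antigen presentation genes summed to 8084 CPM in the members beside 5144 CPM in B barcodes. H2-D1 was at 1.55 times the B level, and 2 of 7 genes were at least 4-fold higher (0.64). Class II genes were lower for all 7 against B (-6.60) and for 5 of 7 against macrophages (-2.63), with a summed level of 233.5 CPM beside 21292 CPM in B and 1752 CPM in macrophage barcodes.

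RNA of other cell types was present in the members at levels near those of the other classes. Crisp1, secreted by the epididymal epithelium, was found in all 122 members at 1816 CPM, beside 1415 in B and 1511 in macrophage barcodes, and the 10 epithelial genes summed to 2144, 1708 and 1858 CPM, while Krt8, Gpx5 and Lcn5 had no UMI in the members. Lyz2, an abundant macrophage lysozyme, was found in 106 members at 282 CPM, beside 258 in B and 39917 CPM in macrophage barcodes. The B list summed to 222 CPM in the members against 29049 in B barcodes, with Pax5, Cd22 and Ighd at 0, and the macrophage list to 364 against 51865 in macrophage barcodes. Monocyte and dendritic genes summed to 130 CPM, of which Ly6c2, which T cells also express, gave 110 of 116 UMIs, and Flt3, Clec9a, Cd209a, Siglech, Fcgr1 and Zbtb46 had none. The other lists summed to 52.8 CPM for mast cells, 15.7 for neutrophils, 8.98 for mesothelium, 6.73 for erythroid cells, 4.49 for fibroblasts and 3.37 for sperm. A share of members with a UMI of such a gene was therefore not read as expression.

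The members were divided by gates on a few genes, which are limits on sparse counts and not clusters. A member went to the first gate it met, in the order NK-type, gamma delta T, CD4 and CD8, CD8 T, CD4 T, other T and rest. NK-type needed a UMI of Ncr1, Klrb1c or Klre1 and at most 1 UMI over Cd3d, Cd3e, Cd3g and Trac, and held 15 members (12.3%, 7.05% to 19.5%). Gamma delta T needed at least 2 UMIs over Trdc, Tcrg-C1, Tcrg-C2 and Tcrg-C4 with a UMI of Cd3d, Cd3e or Cd3g, and held 30 (24.6%, 17.2% to 33.2%). CD8 T, by Cd8a or Cd8b1, held 18 (14.8%, 8.98% to 22.3%), CD4 T, by Cd4, held 29 (23.8%, 16.5% to 32.3%), and 2 members carried both. Other T, with at least 2 UMIs over Cd3d, Cd3e, Cd3g and Trac, held 25 (20.5%, 13.7% to 28.7%), and 3 members met no gate. Without the members shared with a deeper chimera barcode, NK-type held 14 of 121 (11.6%). Median depth was 5329 UMIs in the NK-type, 8856.5 in the gamma delta T, 9132.5 in the CD8 T, 6545 in the CD4 T and 5593 in the other T gate, and a deeper barcode meets a gate of 1 UMI more easily. Once all barcodes had been thinned to 2000 UMIs, the CD4 T gate held 14.9% of members.

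**Figure D3:**
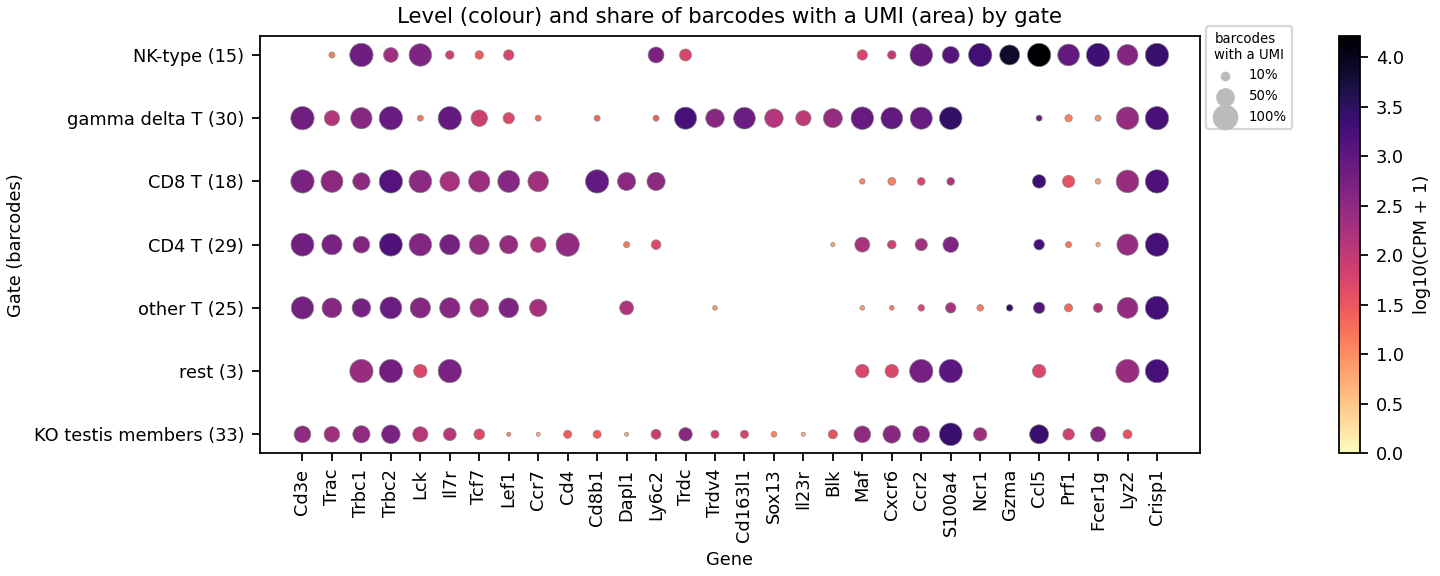
Level of 30 genes as log10(CPM + 1) (colour) and share of barcodes with a UMI (point area) in each gate of the KO cauda and in the 33 T and NK barcodes of the KO testis; the gate with 2 barcodes is not drawn. Ncr1 is highest in the NK-type gate, Cd163l1 in the gamma delta T gate and Cd8b1 in the CD8 T gate, whereas Crisp1 is found in every cauda gate and is at 0 in the testis.

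The 15 NK-type barcodes were rich in Ccl5, granzyme A and NK receptors. Ncr1, a gate gene, ranged from 2 to 17 UMIs (median 11), 1998 CPM in sum. Ccl5 was found in all 15 with 11, 86 and 169 UMIs as the lowest, median and highest, 16369 CPM (15466 to 17310). Gzma was found in 11 of 15 with 0, 29 and 129 UMIs, 7166 CPM (6573 to 7797). The 4 NK-type barcodes without Gzma still held Ccl5, so granzyme A split the gate where Ccl5 did not.

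Other effector and receptor genes of NK cells were widespread in the gate. Prf1 was found in 13 of 15 (0, 4 and 12 UMIs, 892 CPM). Klrk1, which encodes the activating receptor NKG2D, and Il2rb, the receptor chain for interleukin-2 and interleukin-15, were found in all 15, as were Il18r1 and Il18rap. Eomes was found in 11, Tbx21 in 8, Klrc1 in 10, Itga2 in 10 and Ccr2 in 14. Ifng was found in 6, Ccl4 in 6, Gzmb in 6 and Xcl1 in 4. Several T cell genes were at or near 0 in this gate. Bcl11b had no UMI in the 15, Il7r was found in 2, and of the genes the gate limits, Cd3e and Cd3g had none and Cd3d 1 UMI in each of 3. Lck was found in 14. Trbc1 was found in all 15 with 1 to 6 UMIs (52 in all), and Trbc2 in 6.

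Against the 47 CD4 T and CD8 T barcodes, 113 of 1515 genes (7.46%) were at least 4-fold higher in the NK-type barcodes and 38 (2.51%) lower, counting genes with at least 100 CPM and 10 UMIs in the higher gate. Both counts include genes that define the gates, such as Ncr1 and Cd8b1, so part of each was set by the gates. Gzma had no UMI in the 47 and was at least 885-fold higher. Fcer1g, the signalling chain of NK and Fc receptors, had 154 UMIs against 2, a ratio of 380 (103 to 3165), and its partner Tyrobp was 178-fold (80.7 to 491.5) higher. Klrb1f, a lectin receptor of NK cells, had 20 UMIs in 10 NK-type barcodes against 1 UMI (98.7-fold, 15.8 to 4089). The other named genes were Cd244a, Lat2, Irf8 and Olfm1, from 59.2-fold to 49.3-fold. With all barcodes thinned to 2000 UMIs the count of higher genes was 51.

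In the other direction the interferon-inducible gene Ifi27l2a had 156 UMIs in 35 of the 47 CD4 T and CD8 T barcodes and none in the NK-type gate (at least 10.5-fold). Tcf7, a transcription factor of naive and memory T cells, had 95 UMIs in 36 of 47 against 2 UMIs (9.63-fold, 2.59 to 80.7). Sh3bp5, Wdr82, Inpp4b, Dnajc2, Ass1 and Cd2ap were 9.93-fold to 8.92-fold higher there.

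Ncr1 and Gzma, a gate gene and the gene with the largest fold in the NK-type gate, are shown with the 250 bases before their start sites (RefSeq, GRCm38.p6, each on its own strand). Capitals mark the Runx core TGTGGT, which reads ACCACA on the other strand. The windows are chr7:4337474-4337723 (plus strand) for Ncr1 and chr13:113100982-113101231 (minus strand) for Gzma.
Ncr1: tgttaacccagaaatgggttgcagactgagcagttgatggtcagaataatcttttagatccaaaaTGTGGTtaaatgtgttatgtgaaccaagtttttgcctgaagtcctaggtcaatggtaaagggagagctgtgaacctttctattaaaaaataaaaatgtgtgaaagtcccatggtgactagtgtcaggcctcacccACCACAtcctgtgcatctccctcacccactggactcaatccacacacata
Gzma: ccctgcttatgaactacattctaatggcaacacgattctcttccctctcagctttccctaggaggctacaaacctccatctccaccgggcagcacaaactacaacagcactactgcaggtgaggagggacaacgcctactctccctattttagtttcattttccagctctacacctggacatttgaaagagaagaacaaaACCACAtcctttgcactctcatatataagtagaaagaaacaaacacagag
Both windows held a Runx core on the reverse strand that began 50 bases before the start. Ncr1 held a further one 185 bases before its start, and the matches did not overlap. In the table of 32851 promoter windows, which reach 50 bases past the start, 16.8% held the Runx core on either strand. Of the 15 genes named as highest, 9 had a promoter in the table, and 4 of those 9 held the Runx core (Il7r, Gzma, Ncr1 and F2r). The Ets motif CAGGAAG was in 3 of the 9 and 13.3% of all promoters, and the Tcf/Lef motif CTTTGA in 2 and 16.0%. None of the 9 held the T-box motif GGTGTGA (3.98% of promoters) or the Fox motif GTAAACA (3.65%). A match is a run of letters and no measure of binding.

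Most of the 30 gamma delta T barcodes carried delta chain and tissue-type genes. Trdc was found in 27 of 30 with 0, 13.5 and 38 UMIs as the lowest, median and highest, and Tcrg-C1 in all 30 with 1 to 12 UMIs (median 4). The 3 without Trdc had passed on gamma chain UMIs alone. These 3 carried 2, 2 and 3 UMIs of Trac, 2 of them carried 92 and 97 UMIs of Ccl5 together with Cd8b1, and Cxcr6 was at 0 in all 3. The gate thus did not hold 1 kind of barcode. Trac was found in 13 of 30.

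Among variable segments, 1 delta segment gave most of the UMIs. Trdv4 had 97 UMIs in 20 members, 19 of them in this gate, where it reached 0, 2.5 and 14 UMIs. Tcrg-V6, a segment known from gamma delta T cells of skin and reproductive tissue, had 14 UMIs in 12 members, all of them in this gate. Any delta segment was found in 21 members and any gamma segment in 13, while beta and alpha segments were found in 14 and 12 members. A 3′ library reads variable segments only in part, so a segment not seen says nothing. Trbv19 had 5 UMIs in 4 members, all of the CD4 T gate.

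Tissue and interleukin-17-type genes were broad in the gamma delta T gate, although Il17a itself had no UMI. Cd163l1 was found in 26 of 30 with 0, 7 and 15 UMIs, 745 CPM (645 to 856), and in no other member. S100a4, a calcium-binding protein of activated cells, was found in 28 (0, 24 and 57 UMIs). Cxcr6 was found in 26 (0, 7 and 24 UMIs, 940 CPM) and Ccr2 in 27. Sox13, a transcription factor of this lineage, was found in 19, and Il23r, which receives the signal for interleukin-17 release, in 13. Maf was found in 28, Il7r in all 30 at 857 CPM, Il18r1 in 27, Cxcr3 in 23 and Gpr183 in 26.

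The naive and lymph node homing list was found in all 30 gamma delta T barcodes, with 3 to 30 UMIs (median 12.5) and 1573 CPM, beside 3337 CPM in the CD4 T gate. Its members differed in the gamma delta T gate, since Il7r was found in all 30, Tcf7 in 15, S1pr1 in 3 and Ccr7 in 2. In the CD4 T gate S1pr1 was found in 25 and Ccr7 in 13 of 29. The median depth was 8856.5 UMIs in the gamma delta T gate and 6545 in the CD4 T gate.

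Against the 47 CD4 T and CD8 T barcodes, 60 of 1479 genes (4.06%) were at least 4-fold higher in the gamma delta T gate and 38 (2.57%) lower. Both counts include genes that define the gates, such as Trdc and Cd4, so part of each was set by the gates. Blk, a Src-family kinase used by B cells and by some gamma delta T cells, had 72 UMIs in 20 of 30 against 1 UMI (99.9-fold, 17.4 to 3998). Blk was also found in 1362 of 1862 B barcodes, at 189 CPM beside 270 CPM in the gate. Cd163l1 was at least 92.0-fold and Trdv4 at least 44.4-fold higher. Ckb, a creatine kinase, had 142 UMIs in 24 of 30 against 3 UMIs (65.6-fold, 22.0 to 322). Serpinb1a, a protease inhibitor, was found in 26 of 30 (45.8-fold, 17.5 to 170.5), and Actn2 was 45.8-fold higher. Tmem176a and its neighbour Tmem176b, found in 28 and 29 of 30, were 39.2-fold (22.1 to 76.6) and 30.8-fold (19.7 to 50.9) higher.

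Genes lower in the gamma delta T gate included parts of the conventional T cell signal. Lck had 4 UMIs in 2 of 30 barcodes, 14.98 CPM, against 142 UMIs in 44 of 47, a ratio of 25.6 (9.78 to 95.2). Cd28, the main costimulatory receptor, was found in 1 of 30 against 30 of 47 (44.7-fold, 7.73 to 1794). Fyb, an adaptor, was found in 3 against 39 (17.2-fold, 7.15 to 53.8), and Cd6 in none of the 30. Itga4, an integrin chain for homing, was found in 2 against 36 (36.5-fold, 12.3 to 179). Igfbp4, Slfn1, Il6ra and Plac8 were 28.8-fold to 15.6-fold lower. Other signalling genes were present, since Lat was found in 27 of 30, Cd247 in 23 and Zap70 in 22. With all barcodes thinned to 2000 UMIs the count of lower genes was 67.

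Naive genes were found in most of the 18 CD8 T barcodes, and cytotoxic genes in varying numbers of them. Cd8b1, a gate gene, was found in all 18 (1, 7.5 and 19 UMIs) and Cd8a in 13. Lef1 was found in 16 (0, 3 and 8 UMIs), Ccr7 in 14 and Tcf7 in 15. Nkg7, a rule gene, was found in 17 (0, 4.5 and 15 UMIs). Ccl5 was found in 6, with up to 168 UMIs, and Gzma in none of the 18, where the floor of 3 UMIs is 17.6 CPM. The cytotoxic granule list was found in all 18, with 1 to 19 UMIs (median 4.5). Its level was 552 CPM, beside 729 CPM in the CD4 T and 760 CPM in the gamma delta T gate. The list includes Srgn, which many blood cells express, so these sums do not rank the gates by granzymes or perforin. Prf1 was found in 5 of the 18, in 2 of 29 CD4 T and in 3 of 30 gamma delta T barcodes. Ctsw, a protease of cytotoxic cells, was found in 10 of the 18 and in 2 of 29 CD4 T barcodes. Gzma had no UMI in the CD4 T and gamma delta T gates either.

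The 29 CD4 T barcodes were more varied. Cd4 itself was sparse, with 1, 1 and 7 UMIs. Il7r was found in 22 (0, 3 and 18 UMIs), Tcf7 in 21, Lef1 in 18 and Ccr7 in 13. Foxp3, the factor of regulatory T cells, was found in 4, Tnfrsf4 in 10, Izumo1r in 9, Il2ra in 9, Cd40lg in 7 and Icos in 6. S100a4 was found in 13 and Maf in 12. Foxp3 occurred in 1 member outside this gate, in the other T gate.

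Between these gates few genes passed the size rule. Of 1365 genes, 9 (0.659%) were at least 4-fold higher in CD8 T and 21 (1.54%) in CD4 T barcodes. The 9 include the gate genes Cd8a and Cd8b1 and the 21 include Cd4, whose difference the gates set in advance. Plac8 had 63 UMIs in CD8 T against 2 in CD4 T barcodes (37.1-fold, 9.84 to 313) and Dapl1, a gene of naive CD8 T cells, 59 against 3 (23.1-fold, 7.54 to 115). Ctsw was 14.7-fold and Ly6c2 6.59-fold (3.33 to 14.5) higher. Runx3, the factor of CD8 commitment, was found in 14 of 18 against 10 of 29 (4.41-fold, 2.30 to 9.16), and the other named genes were Nhp2 and Rpn2. Higher in CD4 T were Myo6 with 25 UMIs in 10 of 29 against 1 UMI (21.3-fold, 3.48 to 873) and Maf (14.5-fold, 3.71 to 124). Ikzf2, which regulatory T cells often express, had 28 UMIs in 8 of 29 and none in CD8 T (at least 7.93-fold). Top2a with 36 UMIs and Hist1h1b with 31 each came from a single barcode, and Ecm1, Tspan32 and Hif1a were 7.37-fold, 6.52-fold and 6.29-fold higher. These counts depended on depth and on the limits: the count for CD8 T ranged from 5 after thinning to 24 at a minimum of 50 CPM, and that for CD4 T from 13 with a B gene limit of 0.02% to 96 at 50 CPM.

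The 25 other T barcodes carried naive genes about as widely as the CD4 T and CD8 T gates. Lef1 was found in 18, Tcf7 in 16, Ccr7 in 14, Dapl1 in 9 and Lck in 19. They held a median of 5593 UMIs, less than the CD4 T and CD8 T gates. Summed by gate, naive genes were at 3927 CPM in other T, 3484 in CD8 T and 3337 in CD4 T, against 1573 in the gamma delta T and 2331 CPM in the NK-type gate. Among the gates with more than 3 barcodes, memory and tissue genes were highest in the gamma delta T gate, at 18590 CPM. NK-type followed with 10948 CPM, CD4 T with 4460, other T with 2952 and CD8 T with 2268. Cytotoxic granule genes were at 9909 CPM in the NK-type gate and 3396 in other T, where 1 barcode held 419 of the Gzma UMIs, and at 552 to 760 CPM in the other gates with more than 3 barcodes.

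In the KO testis, 33 barcodes met the same rule, and they give a second look at the classes in another tissue. They held 1514 to 33316 UMIs (median 3958), 189905 in all, so the floor of 3 UMIs is 15.8 CPM there. NK-type held 9 of 33 (27.3%, 13.3% to 45.5%), gamma delta T 8 (24.2%, 11.1% to 42.3%), CD8 T 6 (18.2%), other T 6 and CD4 T 4 (12.1%, 3.40% to 28.2%). Every interval overlapped that of the same gate in the cauda.

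**Figure D4:**
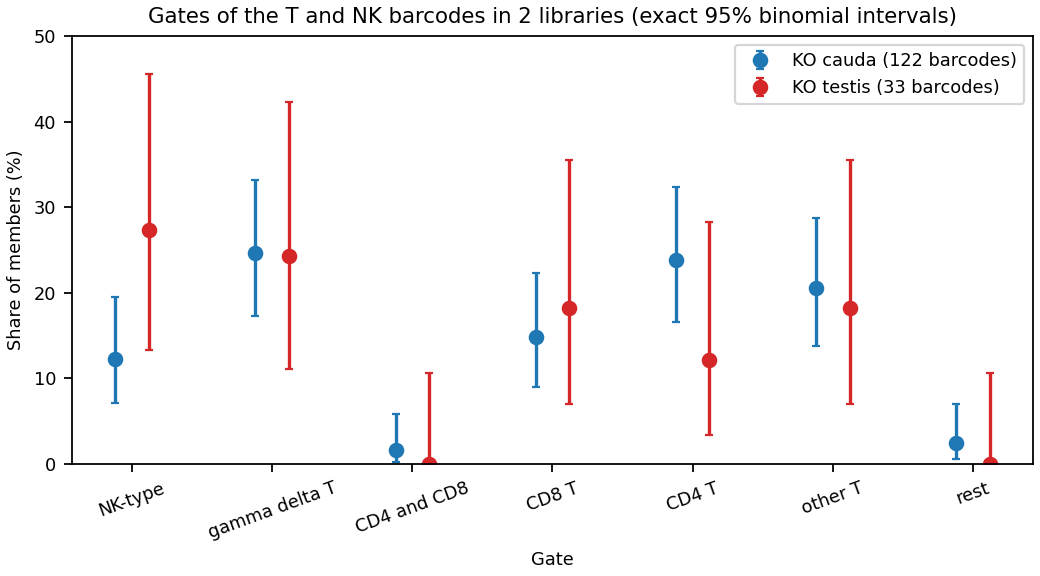
Share of T and NK barcodes (%) in each gate for the KO cauda (122 barcodes) and the KO testis (33 barcodes), with exact 95% binomial intervals that cover counting error only. The intervals of the libraries overlap in every gate, with NK-type at 12.3% in the cauda and 27.3% in the testis.

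Between the libraries, 32 of 1805 genes (1.77%) were at least 4-fold higher in the cauda and 219 (12.1%) in the testis T and NK barcodes, with at least 100 CPM and 10 UMIs in the higher library. Of these, 9 of the 32 and 150 of the 219 were also at least 4-fold different in the same direction between macrophage barcodes of the libraries. That macrophage ratio carried no minimum CPM or UMI count. Its share over all 1805 genes was not computed, so the overlap is not read as more than the background. Tissue, dissociation, library and animal cannot be told apart here.

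Genes higher in the cauda members were led by epithelial Crisp1, which was at 0 in the testis (at least 115-fold) and was different in macrophage barcodes too. Gzma had 959 UMIs in the cauda and none in the testis members (at least 68.1-fold), including the 9 NK-type barcodes of the testis. Naive T cell genes followed. Lef1 was found in 63 of 122 against 1 of 33 (22.8-fold, 6.24 to 189.55), and Ccr7 in 44 against 1 (21.3-fold, 3.74 to 850.3). S1pr1, a list gene and the receptor for leaving lymph nodes, was 10.6-fold (4.08 to 39.3) higher. Slamf6, a receptor of lymphocytes, was 20.7-fold (5.65 to 172) higher. Slfn1, Arhgef18 and 9930111J21Rik2 were 29.4-fold, 14.0-fold and 12.3-fold higher. Slfn1 was also 43.9-fold higher in cauda than in testis macrophage barcodes, at 50.1 against 1.14 CPM.

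Genes higher in the testis members were led by Lcn2, Fabp3, Cyp17a1, Insl3, Defb19 and Mgp, from 2421-fold for Lcn2 to 408-fold for Mgp, and all of these were also higher in testis macrophage barcodes. Cyp17a1 and Insl3 are products of Leydig cells, the steroid-producing cells of the testis. Ccl1 and Gzmc were not shared with macrophages, whose level was 0 in both libraries. Ccl1, a chemokine, had 266 UMIs in 5 of 33 testis members and none in the cauda (at least 416-fold), and Gzmc, a granzyme, had 85 UMIs in 7 of 33 against 1 UMI (399-fold, 69.7 to 15933).

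Some effector genes of the lists were also higher in the testis members. Xcl1, a chemokine for dendritic cells, had 472 UMIs in 18 of 33 testis members, 2485 CPM against 16.8 in the cauda (148-fold, 88.6 to 266), and no UMI in macrophage barcodes. Ifng was at 321 CPM in 11 of 33 against 11.2 CPM in 7 of 122, and Gzmb had 64 UMIs in 8 of 33. Ccl5, Cxcr6 and Ccr2 were close, at 2454, 363 and 400.2 CPM in the testis against 2618, 310 and 406 CPM in the cauda. Il17a, absent from the cauda members, had 5 UMIs in 2 testis members. Immediate early genes summed to 8799 CPM in the testis members and to between 1033 and 1731 CPM in the 5 larger cauda gates, and Egr1 of that list was 298-fold higher in testis members and 35.1-fold higher in testis macrophage barcodes. Tissue dissociation is known to induce genes of this list, and its part in the testis values was not tested. Fibroblast genes summed to 1643 CPM in the testis members, of which Dcn gave 255 UMIs in 8 barcodes. A single barcode held 202 of the 312 fibroblast UMIs, and the median over the 33 members was 0.

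In the chimera cauda the rule found 2 barcodes. One was NK-type with 8918 UMIs and held 18 UMIs of Ncr1, 62 of Ccl5, 29 of Nkg7, 9 of Prf1 and 6 of Gzma, and it is the barcode also present among the KO cauda members. The other was in the gamma delta T gate with 1177 UMIs, 2 of Trdc, 2 of Tcrg-C1 and 2 of Cd163l1. Of the 184 kept chimera barcodes, 119 were shared with the KO cauda, and 2 barcodes give no spread. Gene levels were therefore not compared with the chimera, and only shares were given. Those shares count the shared NK-type barcode in both cauda libraries.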

How the data were processed

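The authors deposited raw UMI counts per gene and barcode, as whole numbers without normalization, for 26124 genes in 3 libraries. Build GRCm38.p6, Cell Ranger 6 and Seurat 4.2.1 are named in the submitters' processing notes, and per the file headers the chimera cauda table came from Cell Ranger 4 and both KO tables from Cell Ranger 6.1.2. A total of 73 genes carry a repeated symbol. Positions come from GENCODE M21, which held 26013 of the 26124 gene IDs (99.6%).

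From the counts, barcodes were filtered, classed by the stated limits and summed per class. No clustering and no doublet caller was run, and doublets were limited only by the B and macrophage limits. A B barcode needed at least 3 UMIs and 2 genes of Cd79a, Cd79b and Ms4a1 at 0.05% or more of its UMIs, and a macrophage barcode at least 3 UMIs and 2 genes of Adgre1, Csf1r, Timd4 and Vsig4, each with fewer than 3 UMIs of the T and NK genes. Levels carry exact Poisson, shares Clopper-Pearson and ratios conditional binomial 95% intervals, computed with Python 3.11.15, numpy 2.4.6, scipy 1.17.1, pandas 2.3.3 and matplotlib 3.10.9. The ratio step was tested on simulated data. Thinning to 2000 UMIs used seed 7.

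The genes named were the 15 highest against both classes by the smaller ratio and the 8 lowest against each, with at least 100 CPM, then the 8 with the largest ratio per direction between gates and between libraries. Left out were rule genes, mitochondrially encoded and ribosomal protein genes, and unnamed models (Gm followed by digits, or a name that ends in Rik). Between gates, the genes that define the gates were left out of this choice too. Members of the 30 gene lists could be named with their values. A gene outside these was picked with its values in view. The members, lists and comparisons were chosen with earlier results of these data known. Alternatives changed the limits, the weighting of barcodes, the depth and the minimum level. Some genes are not reported here.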

Additional observations from a re-analysis of the deposited data

How the results depend on the processing

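No paired analysis was possible because each group holds 1 library and the labels give no replicate numbers. Of 159 shares and counts recomputed under alternatives, 139 stayed within 1.5 times their value (for shares, within the interval). The 20 that moved were as follows. A minimum of 50 CPM gave 195 genes higher and 206 lower than in B barcodes, 256 higher and 499 lower than in macrophage barcodes, 24 higher in CD8 T and 96 in CD4 T barcodes, 124 higher and 84 lower in gamma delta T barcodes, and 78 higher in cauda and 398 in testis members. Thinning to 2000 UMIs gave 51 genes higher in NK-type, 5 in CD8 T, 40 in CD4 T, 67 lower in gamma delta T and 102 higher in testis members, and a CD4 T share of 14.9% (15 of 101). Giving each barcode equal weight gave 14 genes higher in CD8 T and 145 in testis members. Leaving out the deepest 5% of members gave 20 in CD8 T, and a B gene limit of 0.02% gave 13 in CD4 T.

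Of 414 values of single named genes, 65 moved by more than 1.5 times and none changed direction. Over 240 combinations of list and setting, which left out thinning, 198 kept all 4-fold counts and the largest change was 3 genes. Thinning changed the counts of most lists, also by at most 3 genes. NK receptors and markers at least 4-fold higher than in B barcodes fell from 16 to 13 genes. Inhibitory and costimulatory receptors higher than in macrophage barcodes fell from 5 to 2, while immediate early genes higher than in B barcodes rose from 1 to 2. Alternatives chosen after seeing the data were leaving out the 116 barcodes with more UMIs in the chimera table and dropping the Cd3 and Trac limit of the NK-type gate, which gave 19 NK-type (15.6%) and 28 gamma delta T members (22.95%), as were all those for the gamma delta T and testis comparisons. With 890889 UMIs, genes under 3.37 CPM could not be measured in the members, and gates of 2 to 30 barcodes rest on few cells from 1 library.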

Other observations

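Of the members, 3 met no gate. They held 5274, 6838 and 7004 UMIs and had no UMI of Cd3d, Cd3e, Cd3g, Trac, Nkg7 or Klrd1. They became members through Trbc1 (1, 2 and 2 UMIs) and Trbc2 (5, 4 and 3 UMIs). Tcrg-C4, a constant region of the gamma chain, had 2, 5 and 0 UMIs. The first 2 thus missed the gamma delta T gate only for lack of a Cd3 UMI. Some genes known from group 2 innate lymphoid cells, which carry no T cell receptor, were found in all of them, and others were not. Il1rl1, the receptor for interleukin-33, had 5, 6 and 2 UMIs, and the transcription factor Gata3 had 4, 8 and 5. Rora had 2, 1 and 2 UMIs, Il17rb had 0, 1 and 0, and Icos had 0 in each. Id2 and Il7r, which most members carried, had 11, 8 and 10 UMIs and 3, 4 and 3 UMIs. Il2ra was found in 2 of the 3. The cytokine genes Il5, Il13 and Areg had no UMI in any of the 122 members. With 3 barcodes and no cluster, no cell type is named.

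A further 2 members carried Ncr1 together with Cd3 genes and stood in the other T gate. The first held 5408 UMIs, with 1 of Ncr1, 46 of Ccl5 and none of Gzma. The second held 7151 UMIs, with 1 of Ncr1, 28 of Cd3g, 20 of Trbc1, 44 of Ccl5, 4 of Nkg7 and 4 of Klrd1. Its 419 UMIs of Gzma made up the largest single share of the 959 Gzma UMIs of all members, while no NK-type barcode held more than 129.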
